A study of Mus musculus with 2 samples.

Results

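Natural killer (NK) cells that the authors placed in cluster 26 of their deposited cell table are described here across the genome, against the NK cells of the other clusters and by antibody treatment. They were the table entries with the cell type NK and cluster 26 whose barcode held at least 1000 UMIs (unique molecule counts) of mouse genes in this library. The rule found 171 cells. Of these, 2 carried a hashtag of another treatment and were left out, which left 169 of 723 NK cells and of 8716 annotated cells. No member lay near the threshold: the fewest UMIs among members were 2024, and the most among cluster 26 entries below the minimum were 245. All 309 cluster 26 entries of the table are named NK, and 138 of them lie outside this library.

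The cells came from CD45+ immune cells sorted out of tumours that MC38 cells, a line of murine colon cancer, had formed under the skin of mice with human Fc receptors, and were profiled 4 days after treatment. Mice received anti-GITR antibodies of the hIgG1 type (GITR, a T cell costimulator, is the product of Tnfrsf18) at 100 µg in each of 2 injections, or were controls, called both PBS and Untreated in the labels and Untreated here. N297A is labelled an agonist without Fc function, GA-aFuc an agonist with enhanced Fc function, and GITR/Syn GA-aFuc a non-agonist with enhanced Fc function. What Syn stands for and the age of the mice are not given in the sources used here. Hashtags, antibody-linked barcodes that mark the mouse of origin, showed 6 mice in this library: 2 were Untreated, 2 had received N297A, 1 GA-aFuc, and the last 1 the GITR/Syn GA-aFuc antibody. The stated design was 3 mice per treatment, more than the hashtags showed here. The labels do not tie the hashtags to mice one by one, so that each is 1 mouse is a reading of the labels. Cluster 26 held 43 and 28 cells in the Untreated mice, 28 and 35 in the N297A mice, 23 in the GA-aFuc mouse and 12 in the GITR/Syn GA-aFuc mouse, with 62712 to 194261 UMIs summed per mouse.

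NK cells are innate lymphocytes that kill stressed or antibody-coated cells by releasing perforin and granzymes, and that signal to other leukocytes with interferon gamma and chemokines. In mice, maturing NK cells gain the integrin Itgam and the receptors that let them leave marrow and circulate, while cells that settle in tissues or tumours gain integrins such as Itga1 and show less traffic. Killing of antibody-coated cells depends on the Fc receptor CD16, which signals through the adaptor chains Fcer1g and Cd247.

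The NK label was checked against its markers. Of the 169 cells, 63.9% held a UMI of both Ncr1 (ENSMUSG00000062524, the receptor NKp46) and Klrb1c (NK1.1). Ncr1 stood at 256 ± 47.4 CPM (UMIs scaled to a common library total; mean ± SD, n = 6 mice) in cluster 26 and at 248 ± 15.6 CPM in the other NK cells, with 3 of 6 mice higher. By mouse, Ncr1 in cluster 26 was 263 and 209 CPM (Untreated), 296 and 324 CPM (N297A), 207 CPM (GA-aFuc) and 239 CPM (GITR/Syn GA-aFuc), so the groups of cells overlapped. Of the CD3 chains that define T cells, Cd3e had 1 UMI and Cd3d 11 UMIs in all 169 cells. A Cd3g UMI was in 4.73% of cluster 26 cells and in 10.6% of the other NK cells. A UMI of Cd3e, Cd3d or Cd3g was in 18 of 169 cluster 26 cells (10.7%). The T cell receptor constant genes were present in both sets of NK cells: Trbc1 was at 315 ± 63.5 CPM in cluster 26 and 418 ± 39.8 CPM in the others, and Trbc2 at 162 ± 33.1 and 265 ± 23.8 CPM. Of 7 measured members of the T cell list 0 lay higher in all mice and 3 lower. Of 8 neutrophil markers 7 had no UMI, and of 8 B cell markers 6 had none.

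Cluster 26 cells held few UMIs. Median UMIs per cell were 4293 in cluster 26, against 5876 in cluster 19, 13251 in cluster 20, 12444 in cluster 48 and 22125 in cluster 58, the other NK clusters. Ribosomal protein genes took a median 13% of UMIs per cell in cluster 26 and 23.9% in the other NK cells. Summed by mouse, that share ran from 12.7% to 16.3% in cluster 26 and from 23.3% to 25.3% in the other NK cells, without overlap. Of 85 ribosomal protein genes, 78 lay lower in cluster 26 in all 6 mice, with a median log2 difference of -0.81. TMM scaling (edgeR's trimmed mean), which gives less weight to such genes, shifted log2 differences by -0.36.

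Hashtag antibodies bind surface proteins, so their counts are a readout the clustering of genes need not have used. Median hashtag UMIs per cell were 1221 and 1034 in the Untreated mice, 683 and 811 in the N297A mice, 1039 in the GA-aFuc mouse and 1226 in the GITR/Syn GA-aFuc mouse for cluster 26. For the other NK cells they were 2393, 1828, 1209, 1668, 2293 and 1708 in the same order, higher in every mouse. The mean log2 difference of cluster 26 from the other NK cells was -0.88 (SD 0.23, n = 6 mice, lower in 6 of 6; two-sided exact sign-flip permutation test, p = 0.0312, the smallest it can give). Per 1000 mouse UMIs the direction turned, to 0.24, so hashtag counts were lower per cell and not per UMI.

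The question of the first comparison is how these cells differed from the other NK cells of the same tumours. Since the clusters were drawn from the genes, differences are described without a test. A gene is called past the fold where the mean log2 difference over mice, on a log2(CPM + 5) scale, was at least 1 with the same sign in 6 of 6 mice and at least 20 CPM on the higher side. Of 6712 genes with 20 CPM, 422 (6.29%) lay higher and 312 (4.65%) lower. Without the size limit, 20% lay higher and 11.6% lower in all 6 mice, the background for the list counts. With TMM scaling the split was 139 higher to 825 lower, and without the size limit 8.78% lay higher and 23.6% lower, the background for the list counts given with TMM. Against cluster 19 alone 119 genes lay higher and 68 lower (1.82% and 1.04% of 6538), and against cluster 20 alone 733 and 345 (11% and 5.18% of 6654).

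**Figure D1:**
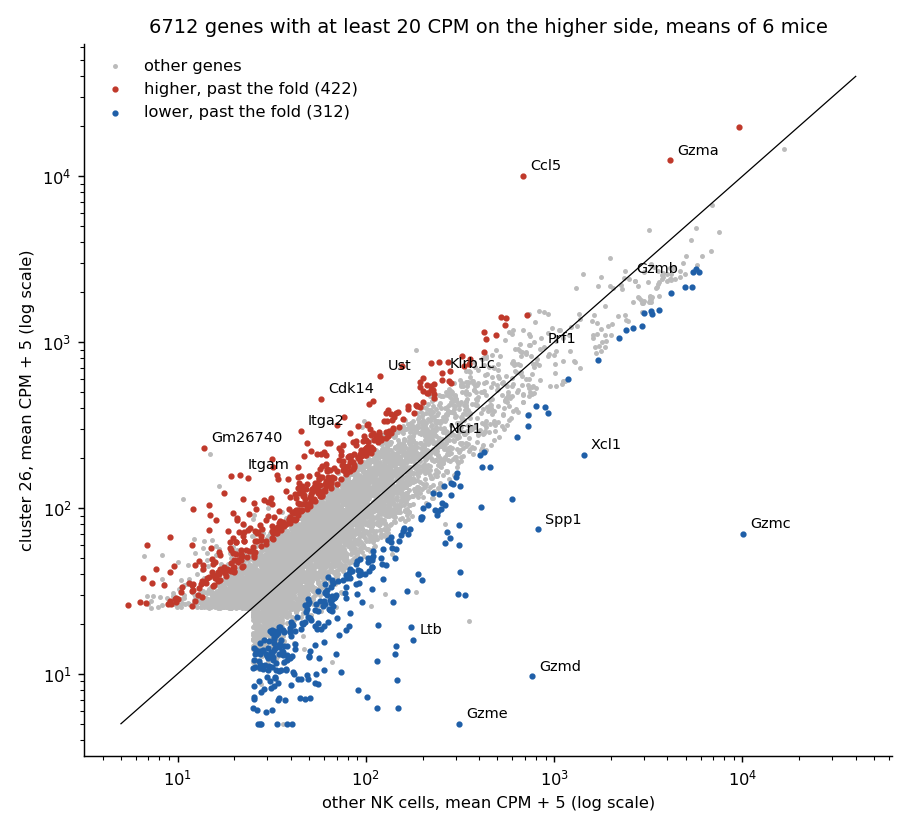
Mean CPM + 5 over 6 mice in cluster 26 (vertical, log scale) against the other NK cells (horizontal, log scale) for 6712 genes, with the 422 higher and 312 lower genes past the fold in colour and the line of equality. Ccl5 and Gzma stand above the line and Gzmc, Gzmd and Gzme far below it, while Gzmb, Prf1 and Ncr1 lie near it.

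Granzymes, the proteases of cytotoxic granules, split between the clusters. The genes Gzmc, Gzmf, Gzmn, Gzmg, Gzmd and Gzme lie side by side next to Gzmb on chromosome 14 (gene order of RefSeq, GRCm38.p6). Starts of this group are shown because members share sequence there: between Gzmc, Gzmd, Gzme, Gzmf and Gzmg, 86.1% to 94% of aligned bases were identical. Each holds 2 matches to TGTGGT or its reverse complement ACCACA, the core of RUNX sites. Of 32851 promoters of this length, 16.8% hold at least 1 match and 1.81% at least 2, and Gzmb also holds 2. The sequences are RefSeq's, build GRCm38.p6, from 250 bases before to 50 after the start, 5′ to 3′ on the gene's strand, with matches to these letters and to the T-box core TCACAC or its reverse complement GTGTGA in capitals. A match is a description of letters, not of binding.

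Gzmc (chr14:56234608-56234907, minus strand): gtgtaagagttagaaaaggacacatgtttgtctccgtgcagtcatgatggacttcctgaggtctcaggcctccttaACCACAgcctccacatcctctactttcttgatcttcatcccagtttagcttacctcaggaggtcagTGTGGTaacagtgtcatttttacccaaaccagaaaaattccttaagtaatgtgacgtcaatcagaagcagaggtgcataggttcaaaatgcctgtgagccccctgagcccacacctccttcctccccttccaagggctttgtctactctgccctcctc

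Gzmd (chr14:56132544-56132843, minus strand): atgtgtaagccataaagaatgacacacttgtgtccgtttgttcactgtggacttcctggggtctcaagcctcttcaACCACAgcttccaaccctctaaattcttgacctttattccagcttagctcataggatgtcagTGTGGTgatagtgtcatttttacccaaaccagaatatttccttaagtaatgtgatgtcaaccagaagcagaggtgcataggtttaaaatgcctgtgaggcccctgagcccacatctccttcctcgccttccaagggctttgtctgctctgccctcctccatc

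Gzme (chr14:56120576-56120875, minus strand): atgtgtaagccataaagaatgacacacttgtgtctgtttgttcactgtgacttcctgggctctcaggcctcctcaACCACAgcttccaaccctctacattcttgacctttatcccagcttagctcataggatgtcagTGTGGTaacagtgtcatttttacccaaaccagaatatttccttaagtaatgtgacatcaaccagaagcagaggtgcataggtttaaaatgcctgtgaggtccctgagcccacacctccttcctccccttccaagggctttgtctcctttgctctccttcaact

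Gzmb (chr14:56262285-56262584, minus strand): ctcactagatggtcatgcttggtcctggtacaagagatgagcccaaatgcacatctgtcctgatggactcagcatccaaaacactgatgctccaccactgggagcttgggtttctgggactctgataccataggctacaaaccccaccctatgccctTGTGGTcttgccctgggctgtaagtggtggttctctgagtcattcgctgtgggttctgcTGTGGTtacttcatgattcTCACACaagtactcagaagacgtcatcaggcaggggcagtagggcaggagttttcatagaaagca

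Gzmc (ENSMUSG00000079186) was at 61.8 and 57.6 CPM in the Untreated mice, 72.2 and 82.7 CPM in the N297A mice, 84.2 CPM in the GA-aFuc mouse and 31.9 CPM in the GITR/Syn GA-aFuc mouse in cluster 26. The other NK cells of the same mice held 9928, 10258, 6098, 9006, 15312 and 10039 CPM. No mouse came near overlap, and the mean log2 difference was -7.18 (SD 0.62). Gzmd had 4 UMIs in all cells of cluster 26, against 757 ± 950 CPM in the other NK cells. Gzme had none, against 46.5 to 263 CPM in the other NK cells of 5 mice and 1056 CPM in the GA-aFuc mouse. With UMIs pooled over mice and 3 UMIs over the whole cluster as the floor, Gzme was at least 99.3-fold lower, and at least 35.1-fold without the GA-aFuc mouse. Cluster 19 was low in these genes as well. Pooled over mice it held 571 CPM of Gzmc, 8.83 CPM of Gzmd and 0 CPM of Gzme, where cluster 20 held 11007, 973 and 375 CPM. Against cluster 19 alone Gzmc differed by -2.50, higher in 0 of 6 mice, and Gzmd by -0.58, higher in 3 of 6, so the low Gzmd and Gzme levels were shared by both clusters. Free RNA in nearly empty barcodes held 888 CPM of Gzmc, more than cluster 26 itself. Since Gzmd, Gzme, Gzmf and Gzmg are alike, reads can be split or lost between them.

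Gzma, on chromosome 13, was high. Cluster 26 held 14208 and 11433 CPM (Untreated), 13617 and 13132 CPM (N297A), 11859 CPM (GA-aFuc) and 10572 CPM (GITR/Syn GA-aFuc), and the other NK cells 3092 to 4990 CPM. The log2 difference was 1.61 (SD 0.24, 6 of 6 mice). Cluster 19 was high too, at 8899 CPM pooled over mice against 4161 CPM in cluster 20, 549 CPM in cluster 48 and 1983 CPM in cluster 58, and cluster 26 lay above it by 0.51 in 6 of 6 mice. Gzmb, the granzyme that triggers caspases, did not separate the cells: 2403 ± 584 CPM in cluster 26 and 2482 ± 384 CPM in the others, with 3 of 6 mice higher. Prf1, the pore-forming perforin, was at 909 ± 227 and 838 ± 115 CPM, with 5 of 6 mice higher. Fas ligand (Fasl; 252 ± 52 against 94.8 ± 9.61 CPM) and the granzyme inhibitor Serpinb9b (201 ± 117 against 42 ± 12.7 CPM) lay higher in 6 of 6 mice. In the cytotoxic granule list, 4 of 18 measured members lay higher in all mice and 6 lower (2 and 8 with TMM), with a median of -0.12 beside 0.15 over all genes.

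Ccl5 (ENSMUSG00000035042), a chemokine that draws T cells and myeloid cells, had the largest difference of any gene named here on the higher side. It stood at 11021 and 10728 CPM (Untreated), 12960 and 10989 CPM (N297A), 7112 CPM (GA-aFuc) and 7558 CPM (GITR/Syn GA-aFuc). In the other NK cells it was 986, 631, 1207, 805, 280 and 183 CPM, below cluster 26 in every mouse. That is a log2 difference of 4.12 (SD 0.74), or 14.8-fold between the means. Pooled over mice, cluster 19 held 2836 CPM of Ccl5 and clusters 20, 48 and 58 held 103, 136 and 42.8 CPM, and free RNA held 975 CPM. Against cluster 19 alone the difference was 2.20 in 6 of 6 mice. With every cell thinned to 2000 UMIs, 97% of cluster 26 cells held a Ccl5 UMI, against 36.6% of other NK cells and 20.9% of macrophages. Unthinned, 98.2% of cluster 26 cells (median 4293 UMIs) and 55.4% of other NK cells (median 10302 UMIs) held one.

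Other secreted factors went both ways. Ccl3, a chemokine that draws myeloid cells, was at 93.8 ± 71.8 CPM against 7.11 ± 1.58 CPM, higher in 6 of 6 mice, with 33.3% of its cluster 26 UMIs in 1 cell. Ccl4, its neighbour, was at 888 ± 493 against 179 ± 287 CPM in 5 of 6 mice. Free RNA held 158 CPM of Ccl3, more than cluster 26. Xcl1, which attracts cross-presenting dendritic cells, was low: 314 and 64.8 CPM (Untreated), 253 and 159 CPM (N297A), 276 CPM (GA-aFuc) and 159 CPM (GITR/Syn GA-aFuc), against 1215 to 1700 CPM in the other NK cells. The lymphotoxin chain Ltb was at 11.1 ± 8.72 against 173 ± 27.8 CPM. Interferon gamma (Ifng) overlapped, at 75.5 ± 66.9 and 37.7 ± 12.9 CPM. Spp1, osteopontin, was at 69.1 ± 130 against 812 ± 329 CPM, with 45.8% of its 59 UMIs in 1 cell.

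**Figure D2:**
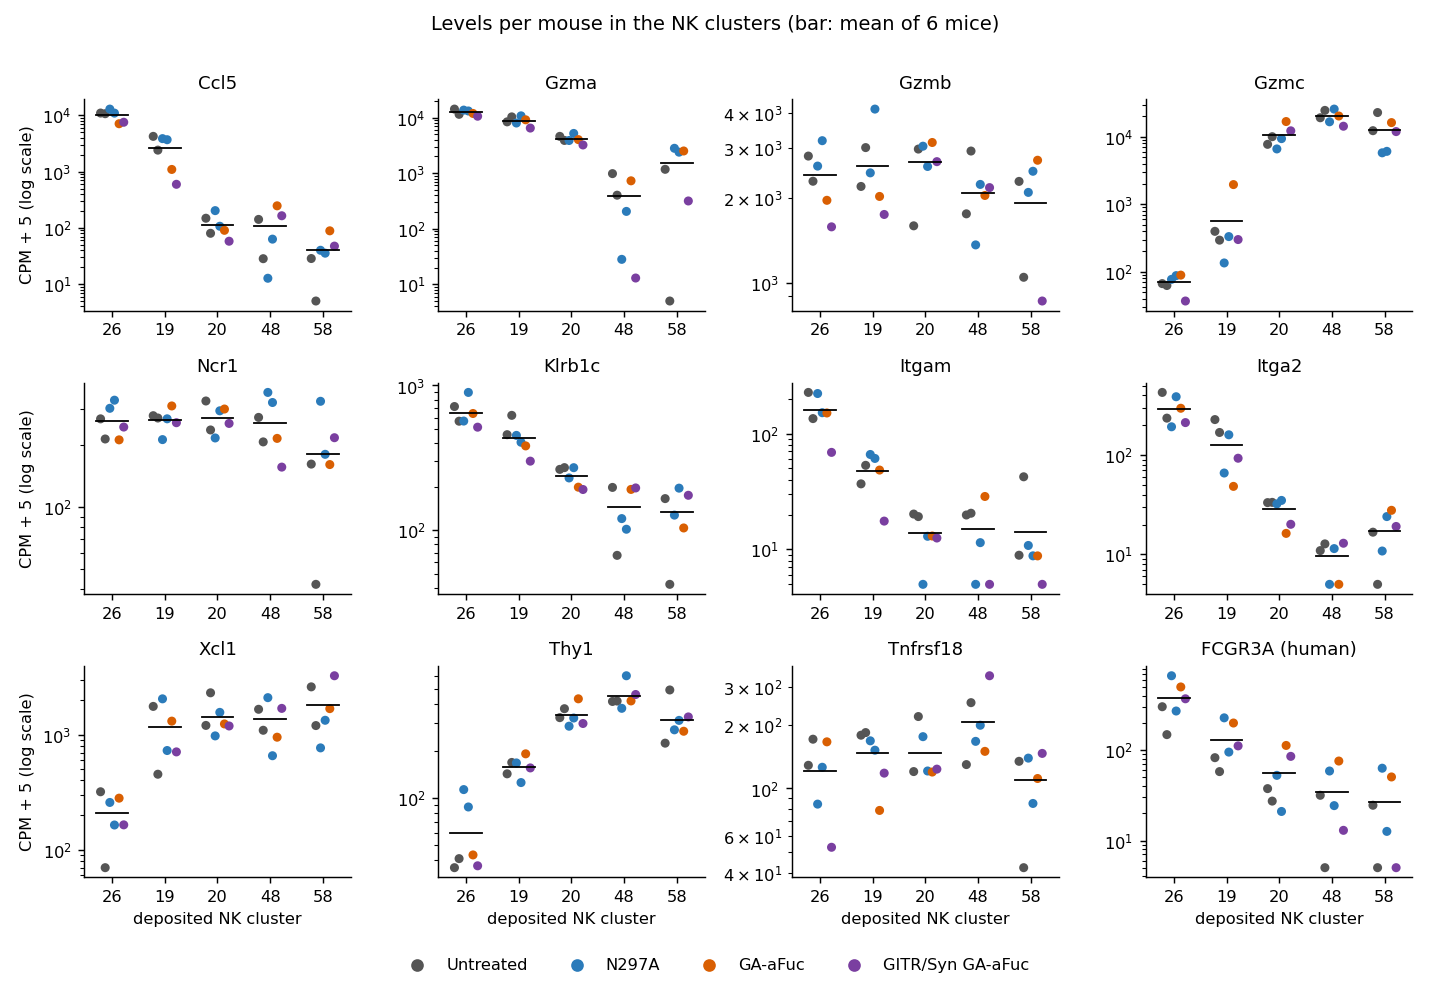
CPM + 5 (log scale) of 12 genes in the 5 deposited NK clusters; each point is a mouse, coloured by treatment, and the bar is the mean of 6 mice. Ccl5, Klrb1c, Itgam, Itga2 and human FCGR3A are highest in cluster 26 and next in cluster 19, Gzmc, Xcl1 and Thy1 are lowest in cluster 26, and Ncr1, Gzmb and Tnfrsf18 overlap between clusters.

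Genes of mature, circulating NK cells lay higher as a group. Of 20 measured members of that list 12 were higher in all 6 mice and 1 lower (10 and 1 with TMM), with a median log2 difference of 1.28. Itgam (CD11b) was at 221 and 130 CPM (Untreated), 216 and 146 CPM (N297A), 146 CPM (GA-aFuc) and 63.8 CPM (GITR/Syn GA-aFuc), against 6.64 to 23.4 CPM in the other NK cells, with no overlap. S1pr5, the receptor for blood-directed exit, was at 22 ± 15.8 against 1.34 ± 0.386 CPM, and S1pr1, a related exit receptor, at 30.4 ± 14.9 against 2.28 ± 1.68 CPM, both in 6 of 6 mice and from 17 and 24 UMIs. The transcription factors Klf2 (207 ± 93.9 against 49.9 ± 16 CPM), which drives S1pr1, and Zeb2 (235 ± 69.6 against 70.8 ± 21.9 CPM) went with them. Klrg1, a late maturation receptor, was at 63.1 ± 28.3 against 22.8 ± 9.39 CPM. Emb was the member lower in all mice, at 408 CPM against 792 CPM.

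Some of these genes are also made by macrophages, whose markers took a larger share of UMIs in cluster 26. That share was 0.0845% to 0.479% in cluster 26 and 0.0526% to 0.0951% in the other NK cells. It was larger in cluster 26 within each mouse, though the ranges overlapped. Of 11 measured macrophage markers 3, Apoe and Lyz2 among them, lay higher in all 6 mice and 0 lower (2 and 0 with TMM). The background was 20% higher and 11.6% lower (8.78% and 23.6% with TMM), so these few genes were near it. Lyz2 was at 309 ± 195 against 64.9 ± 10.1 CPM and Apoe at 667 ± 583 against 274 ± 94 CPM, with 37.7% of Apoe UMIs in 1 cell. Free RNA held 119 CPM of Itgam, 104 of Klf2, 185 of Zeb2 and 127 of Cx3cr1, but 0.979 CPM of Itga2 and 0.245 of S1pr5. At 2000 UMIs a C1q UMI was in 55% of cluster 26 cells and 38.6% of the other NK cells. By cluster it was in 52.4% (cluster 19), 38% (cluster 20), 32.6% (cluster 48) and 28.6% (cluster 58) of cells. In CD8 T cells the share was 44.3% and in macrophages 99.6%, and 2 of 169 cluster 26 cells held 10 or more. Of the dendritic cell list, 4 of 14 members were measured. Of these 2 (H2-Ab1 and Cd74 of antigen presentation) lay higher in all 6 mice and 0 lower (1 and 0 with TMM). The median was 1.13 over the 4 measured members and 0 over all 14. That list took 0.0558% to 0.444% of UMIs in cluster 26, most in N297A replicate 1, and 0.0315% to 0.068% in the other NK cells. Single cells held 50.8% of the H2-Ab1 UMIs and 36.4% of the Cd74 UMIs, and 6 members, Flt3 and Clec9a among them, had no UMI. The part of macrophage or dendritic cell RNA in Itgam, Klf2, Zeb2 and Cx3cr1 was not tested.

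Homing and adhesion genes followed the same order. Of 18 measured members 11 lay higher in all mice and 1 lower (8 and 3 with TMM), with a median of 0.85. Itga2 (the integrin CD49b of conventional NK cells) was at 422 and 230 CPM (Untreated), 188 and 382 CPM (N297A), 291 CPM (GA-aFuc) and 207 CPM (GITR/Syn GA-aFuc), against 15.4 to 60.6 CPM in the other NK cells. Cxcr4, the receptor for marrow retention, was at 207 ± 45.4 against 53 ± 25.8 CPM, higher in 6 of 6 mice.

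Residency genes ran the other way. Of 13 measured members of the tissue-resident and ILC1 list, 4 lay lower in all mice and 1 higher (6 and 0 with TMM), with a median of -1.24. Inpp4b, a lipid phosphatase, was at 25.5 ± 5.46 against 303 ± 84.9 CPM, and the oxysterol receptor Gpr183 at 45.1 ± 15.8 against 138 ± 22.4 CPM. Itga1 (CD49a) was at 20.6 and 14.4 CPM (Untreated), 36.1 and 19.1 CPM (N297A) and 53.6 CPM (GA-aFuc), against 95.1 to 168 CPM in the other NK cells of the 6 mice. The GITR/Syn GA-aFuc mouse broke the pattern, with 144 CPM in cluster 26 and 108 CPM in the others, from 12 cells. Thy1, a surface protein gene, was at 54.7 ± 32.7 against 306 ± 34.7 CPM, lower in 6 of 6 mice.

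Receptors for the cytokines that prime NK cells were among the higher genes. Of 14 measured cytokine receptor genes 8 lay higher in all mice and 0 lower (6 and 3 with TMM), with a median of 0.57. Il18rap, a chain of the IL-18 receptor, was at 396 and 295 CPM (Untreated), 368 and 432 CPM (N297A), 268 CPM (GA-aFuc) and 319 CPM (GITR/Syn GA-aFuc), against 59.4 to 82.3 CPM in the other NK cells. Its partner Il18r1 (295 ± 59.4 against 99.9 ± 22.6 CPM) and Il12rb2 of the IL-12 receptor (598 ± 270 against 195 ± 40.3 CPM) lay higher in 6 of 6 mice.

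Of 25 measured NK transcription factors 11 lay higher in all mice and 1 lower (7 and 4 with TMM), with a median of 0.53. Eomes, which marks conventional NK cells, was at 254 ± 53.5 against 115 ± 17 CPM (log2 difference 1.10, SD 0.44, 6 of 6 mice). Tbx21 (T-bet), its relative, was at 333 ± 121 against 214 ± 42.2 CPM, higher in 5 of 6 mice. Bach2 was at 814 ± 209 against 321 ± 45.4 CPM. Ikzf2 (Helios) was the lower member, at 60.8 ± 22 against 274 ± 59.7 CPM.

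Immediate early genes, switched on within minutes of a stimulus and also by tissue dissociation, were high in 15 of 22 measured members in all mice and low in 0 (7 and 0 with TMM), with a median of 0.71. Nfkbiz was at 215 ± 84.2 against 46.1 ± 21.2 CPM, Nfkbia, the NF-kB inhibitor, at 501 ± 206 against 196 ± 73.5 CPM, and Dusp1, a MAP kinase phosphatase, at 270 ± 45.3 against 111 ± 19.9 CPM. Free RNA held 345 CPM of Dusp1 and 386 CPM of Zfp36, above both sets of NK cells.

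Growth and division genes were low. Of 19 measured members of the MYC and mTORC1 growth list 16 lay lower in all mice and 0 higher (17 and 0 with TMM), with a median of -0.86. The nucleolar chaperone Npm1 was at 595 ± 161 against 1187 ± 141 CPM and the polyamine enzyme Odc1 at 131 ± 51.4 against 256 ± 30.3 CPM. Of 20 measured glycolysis and hypoxia genes 8 lay lower in all mice (11 with TMM), Ldha for one at 357 ± 100 against 719 ± 66.4 CPM. In the cell cycle lists, 11 of 18 S phase and 10 of 16 G2/M genes lay lower in all mice and 0 higher. Cluster 58 stood apart from the rest in these genes: Top2a, a topoisomerase of dividing cells, was at 1019 CPM there, and at 26.1 CPM in cluster 26, 22.8 CPM in cluster 19 and 27.5 CPM in cluster 20. Mki67 was at 592 CPM in cluster 58, 20.8 CPM in cluster 26 and 9.57 CPM in cluster 19. Against cluster 19 alone, 2 of 9 measured S phase genes lay higher and 1 lower in all mice, and of 3 measured G2/M genes 0 and 1. Against clusters 19 and 20 alone the histone gene H1f5 turned from -3.60 to 0.54.

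The checkpoint list went in both directions by library size, with 3 of 13 measured members higher in all mice and 3 lower. With TMM the counts were 1 and 5. The median was -0.44, and -0.81 with TMM. Ctla4 was at 9.72 ± 9.08 against 139 ± 29.7 CPM, lower in 6 of 6 mice. Pdcd1 (PD-1) had 0 UMIs in cluster 26, against 21.8 ± 10 CPM, with the highest level in cluster 48 at 81.1 CPM. Lag3, an inhibitory receptor, had 1 UMI, against 20.2 ± 4.12 CPM. The inhibitory receptor gene Tigit was higher, at 30.7 ± 15.5 against 16.6 ± 3.66 CPM. The ectoenzyme Entpd1 (CD39) was also higher, at 145 ± 60.3 against 29 ± 10.6 CPM, and Tox, a regulator of lymphocyte differentiation, at 133 ± 28.4 against 55.8 ± 12.8 CPM. Free RNA held 112 CPM of Entpd1.

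The target of the antibodies was not clearly different. Tnfrsf18 (ENSMUSG00000041954) was at 124 and 166 CPM (Untreated), 79.4 and 121 CPM (N297A), 161 CPM (GA-aFuc) and 47.8 CPM (GITR/Syn GA-aFuc) in cluster 26, and at 114 to 204 CPM in the other NK cells, with overlap. Its relative Tnfrsf9 (4-1BB), induced by activation, was at 364 ± 39.6 against 734 ± 97.7 CPM, lower in 6 of 6 mice.

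The remaining lists moved less or changed with the scaling. Of 16 measured NK identity genes 9 lay higher in all mice and 3 lower, but 4 and 4 with TMM, and of 19 lectin receptor genes 6 and 1, but 2 and 3 with TMM. Klrb1c, the NK1.1 gene, was at 710 and 562 CPM (Untreated), 563 and 890 CPM (N297A), 635 CPM (GA-aFuc) and 510 CPM (GITR/Syn GA-aFuc), against 203 to 313 CPM in the other NK cells, without overlap. Of 22 oxidative phosphorylation genes 9 lay lower in all mice and 1 higher (18 and 0 with TMM), and of 13 mitochondrially encoded genes 4 and 0 (12 and 0 with TMM). Of 24 type I interferon genes 2 lay higher and 1 lower in all mice, shares below the background of 20% and 11.6%.

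Among the genes with the largest differences outside the lists, Gm26740 (226 ± 81.1 against 8.80 ± 2.97 CPM) and Raet1e (55 ± 19 against 1.83 ± 1.21 CPM), which encodes a ligand of the NK receptor NKG2D, lay higher in 6 of 6 mice. Cdk14, a cyclin-dependent kinase, was at 449 ± 96.7 against 52.4 ± 21.6 CPM and Ust, a sulfotransferase of glycosaminoglycans, at 621 ± 124 against 114 ± 49.6 CPM. Gm26740 was rare in cluster 19 too, at 24.3 CPM, and Raet1e at 3.68 CPM. On the lower side the semaphorin gene Sema6d had 1 UMI in cluster 26, against 109 ± 30 CPM in the other NK cells.

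**Figure D3:**
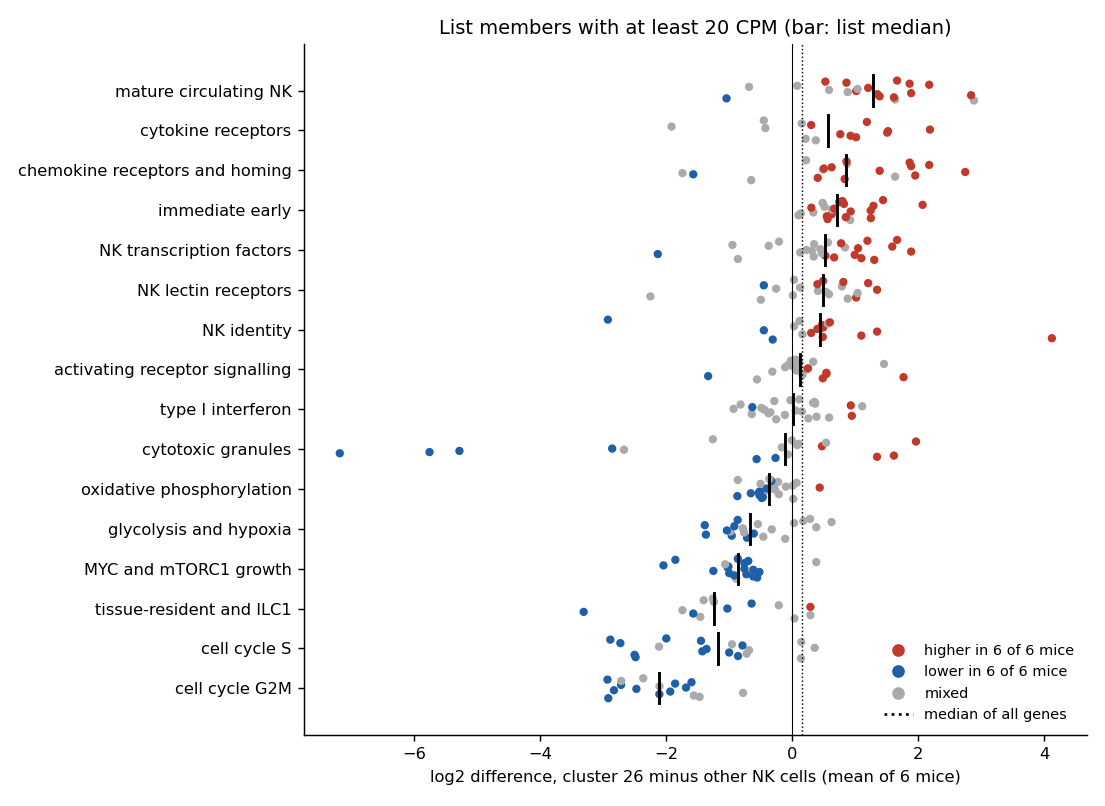
Log2 difference of cluster 26 from the other NK cells (horizontal, mean of 6 mice) for each list member with at least 20 CPM; red is higher and blue lower in all 6 mice, the bar is the list's median and the dotted line the median of all genes, 0.15. The mature circulating NK list lies furthest right, at 1.28, and the G2/M list furthest left, at -2.11, where Top2a was at 1019 CPM in cluster 58 and 22.8 CPM in cluster 19; with TMM scaling the medians of activating receptor signalling (0.11) and type I interferon (0.01) turn to -0.28 and -0.36.

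The lists were also counted against cluster 19 alone, a comparison added after seeing the data. There, 8.11% of 6538 genes lay higher and 5.17% lower in all 6 mice. Of the mature circulating list 7 of 20 measured members lay higher and 1 lower, with a median of 0.72, and of the immediate early list 8 of 22 lay higher, with a median of 0.55. Of the tissue-resident list 0 of 11 lay higher and 1 lower, of the homing list 4 of 19 higher and 0 lower, and of the MYC and mTORC1 growth list 0 of 16 higher and 3 lower. Of the type I interferon list 0 of 25 lay higher and 4 lower, with a median of -0.50.

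Human Fc receptor RNA bears on antibody treatment in these mice. FCGR3A, the gene of CD16A, was at 299 and 144 CPM (Untreated), 664 and 267 CPM (N297A), 498 CPM (GA-aFuc) and 367 CPM (GITR/Syn GA-aFuc) in cluster 26, as CPM of mouse UMIs. In the other NK cells it was at 38.2, 25.7, 102, 29.6, 101 and 66.4 CPM, lower in every mouse. The log2 difference was 2.56 (SD 0.30, 6 of 6 mice), or 6.16-fold between means. Against cluster 19, which held 124 ± 68.7 CPM, it was 1.56 in 6 of 6 mice. The other human Fc receptors had higher means in cluster 26 as well: FCGR2A was at 150 ± 143 against 22.6 ± 14.9 CPM, FCGR2B at 114 ± 81.3 against 35.4 ± 6.36 CPM and FCGR3B at 546 ± 248 against 154 ± 18.1 CPM. For FCGR2A, 42 of the 123 UMIs of cluster 26 were in 1 cell. FCGR2B was lower in cluster 26 in the GITR/Syn GA-aFuc mouse, at 15.9 against 25.2 CPM. Free RNA held 125 CPM of FCGR3A, 536 CPM of FCGR2A and 1846 CPM of FCGR3B.

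Cluster 26 lay above macrophages for FCGR3A (238 ± 18.9 CPM) in 5 of 6 mice and below them for FCGR3B (546 ± 248 against 3611 ± 280.5 CPM). Counts of FCGR3A per count of FCGR3B were 0.637 in cluster 26, ranging from 0.155 to 1.53 over mice. The same ratio was 0.0659 in macrophages (0.0643 to 0.0677 over mice) and 0.0676 in free RNA, so it lay higher in cluster 26 in every mouse. The ratio in the other NK cells together was 0.39 (0.168 to 0.656 over mice), a range that overlapped cluster 26. By cluster it was 0.517 (cluster 19, 0.239 to 1.31 over mice), 0.408 (cluster 20), 0.255 (cluster 48) and 0.215 (cluster 58). CD8 T cells had a ratio of 0.531 and held 84.4 ± 52.5 CPM of FCGR3A. At 2000 UMIs 38.5% of cluster 26 cells held an FCGR3A UMI, against 12.1% of other NK cells, 11.6% of CD8 T cells and 36.3% of macrophages. FCGR3A and FCGR3B are near-identical genes, so the authors' counting could have split or dropped reads between them.

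Of the adaptors of CD16, Cd247 was at 319 and 266 CPM (Untreated), 361 and 407 CPM (N297A), 214 CPM (GA-aFuc) and 271 CPM (GITR/Syn GA-aFuc), against 69.1 to 119 CPM in the other NK cells, with no overlap. Fcer1g was alike in both, at 2665 ± 225 and 2381 ± 180 CPM, and higher in free RNA, at 4092 CPM.

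How the treatments related to the number of these cells was asked next. Cluster 26 made up 25.9% and 25.9% of NK cells in the Untreated mice, 25.5% and 26.1% in the N297A mice, 17.6% in the GA-aFuc mouse and 16.2% in the GITR/Syn GA-aFuc mouse. The 4 mice without an Fc-enhanced antibody lay within a point of each other and the 2 with one lay below them. Exact (Clopper-Pearson) 95% intervals, which cover counting error only, overlapped: 11.5% to 25.2% in the GA-aFuc mouse and 18% to 35.2% in Untreated replicate 2. The Fc-enhanced mice differed from the other 4 by -8.96 points (two-sided exact permutation test, p = 0.0667, the smallest this design allows; Benjamini-Hochberg adjusted p = 0.267 over 4 comparisons). N297A differed from Untreated by -0.13 points (exact permutation p = 1, with a smallest possible p of 0.333). Of all annotated cells the Fc-enhanced mice held 1.24% and the others 2.27% in cluster 26 (exact permutation p = 0.133). Outside this library the table's NK entries were in cluster 26 at 24.4% for Untreated, 26.1% for N297A, 21.1% for GA-aFuc and 21.6% for the non-agonist GITR/Syn GA-aFuc, with overlapping intervals and no mouse given.

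**Figure D4:**
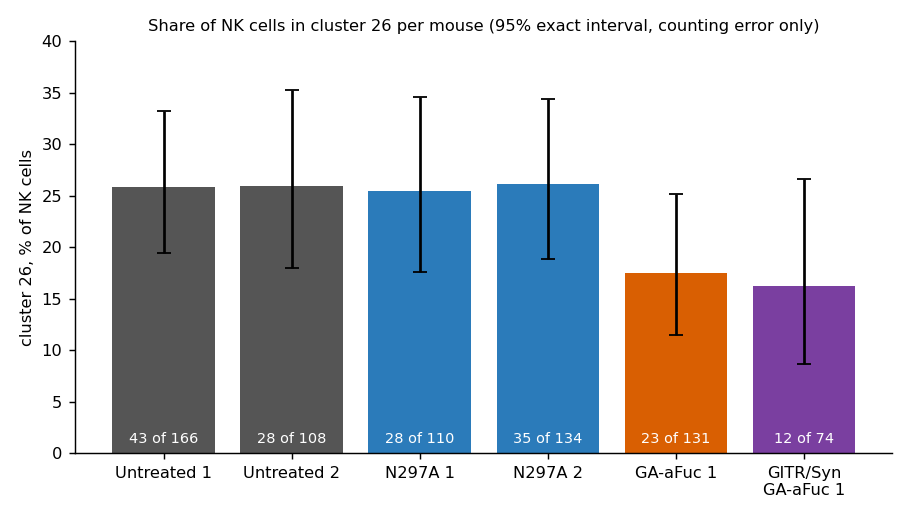
Share of NK cells in cluster 26 (percent) for each mouse, with cells of cluster 26 and of all NK cells written in the bar and the 95% exact interval of counting error. The mice given GA-aFuc (17.6%) or GITR/Syn GA-aFuc (16.2%) lie below the other 4 (25.5% to 26.1%), within overlapping intervals.

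Genes were then compared by treatment within cluster 26, with edgeR's quasi-likelihood test and Benjamini-Hochberg adjustment over 4019 genes. A group of 1 mouse was assumed to vary like the groups with 2. N297A against Untreated gave 0 genes past an adjusted p of 0.05 (0% called; 158 genes at an unadjusted p under 0.05; DESeq2 and limma-voom also 0). GITR/Syn GA-aFuc against Untreated gave 0 (314 unadjusted; 0 by DESeq2 and limma-voom). GA-aFuc against Untreated gave 6 (0.149%), 5 higher and 1 lower. The 2 Fc-enhanced mice against the other 4 gave 1 (0.0249%), Ccl5. That count was 9 to 21 with any 1 mouse left out and 14 without the top cell of each gene in each mouse, and for GA-aFuc it was 8 to 23 and 2. With a mouse left out it was 0 to 18 for N297A and 4 to 10 for GITR/Syn GA-aFuc. These comparisons share mice and are not independent.

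Ccl5 fell in the Fc-enhanced mice. At 7112 and 7558 CPM they lay below the other 4, at 10728 to 12960 CPM (log2 change -0.64, SE 0.09, adjusted p = 7.17e-05 by edgeR; 6 of 6 mice on their side). DESeq2 gave an adjusted p of 0.031 and limma-voom 0.00153, and with each mouse left out in turn the change was -0.70 to -0.56 and still passed. For GA-aFuc alone the change was -0.60 (SE 0.12, adjusted p = 0.0194 by edgeR), which DESeq2 did not call (adjusted p = 1), and for GITR/Syn GA-aFuc -0.54 (SE 0.12, adjusted p = 0.194). N297A against Untreated did not pass (0.14, SE 0.09, adjusted p = 0.993 by edgeR). Clusters were drawn by the authors from the cells' genes, so a lower level within the cluster and a change in which cells were placed there cannot be told apart.

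Other effector genes did not pass in that comparison. Gzmb stood at 1960 and 1579 CPM in the Fc-enhanced mice, below 2290 to 3186 CPM in the other 4 (-0.63, SE 0.13, adjusted p = 0.0768 by edgeR). Gzma (-0.23, adjusted p = 0.479) and Prf1 (-0.49, adjusted p = 0.434) did not pass either. Tnfrsf18 was at -0.45 (SE 0.46, adjusted p = 0.847), a difference not detectable with 101 UMIs in all.

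Most of the other calls for GA-aFuc came from a single cell. The chemokines Cxcl2 (log2 change 6.54), Ccl2 (3.99) and Ccl7 (3.55), which attract neutrophils and monocytes, had 153 of 155, 81 of 87 and 75 of 79 UMIs of that mouse in 1 cell. That cell held 15423 UMIs, where the median of that mouse's cluster 26 cells was 4828. Of the myeloid genes it held 25 UMIs of Lyz2, 2 of Cd68 and 1 of C1qa. It also held 81 UMIs of Ccl5 and 53 of Gzma, and 0 of Ncr1. Of its hashtag UMIs 97.8% were from 1 hashtag. What kind of cell it was, or whether it was a doublet, was not tested. Rgs1, which dampens chemokine signals, had 97 of 155 UMIs there (1.21, SE 0.26, adjusted p = 0.0394 by edgeR). The inhibitory receptor gene Klra1 was spread over 9 of 23 cells (2.55, SE 0.52, adjusted p = 0.0194 by edgeR), at 245 CPM against 56.6 and 21.6 CPM in the Untreated mice. That arm is 1 mouse, and the Klra1 call was lost in 2 of 6 alternative analyses (adjusted p up to 1) and in 1 of the 5 fits that leave out a mouse (adjusted p = 0.0718 by edgeR). Klra1 belongs to a family of close copies, so its reads are uncertain.

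Whether treatment acted alike in cluster 26 and the other NK cells was tested as an interaction, with the mouse as a block, over 8552 genes. N297A gave 0 genes (0%; 359 unadjusted; 0 by DESeq2 and limma-voom), GA-aFuc 10 (0.117%), GITR/Syn GA-aFuc 2 (0.0234%) and the Fc-enhanced pair 4 (0.0468%). Ccl5 passed in the last 3, which share mice, but for GA-aFuc the call (0.83, adjusted p = 0.0486 by edgeR) was lost in 4 of 6 alternatives and in 3 of 5 with a mouse left out (adjusted p up to 0.517). For GITR/Syn GA-aFuc it was lost in 1 of 6 and in 0 of 5. For the Fc-enhanced pair its change in cluster 26 exceeded that in the other NK cells by 1.24 (SE 0.15, adjusted p = 1.47e-12 by edgeR, 3.52e-07 by limma-voom and 0.214 by DESeq2, which did not call it). Between means, Ccl5 was 1.56-fold lower in the Fc-enhanced mice in cluster 26 and 3.92-fold lower in the other NK cells. In those other NK cells 183 and 280 CPM stood against 631 to 1207 CPM. Clusters were drawn from the genes, and Ccl5 separates cluster 26 from the others. A smaller fall within cluster 26 and a change in which cells were placed there therefore cannot be told apart in the interaction either.

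The makeup of those other NK cells differed as well: cluster 19 was 47 of 123, 36 of 80, 40 of 82 and 40 of 99 of them in the Untreated and N297A mice, 27 of 108 in the GA-aFuc mouse and 20 of 62 in the GITR/Syn GA-aFuc mouse. Inside cluster 19 Ccl5 was at 4237 and 2409 CPM (Untreated), 3862 and 3694 CPM (N297A), 1090 CPM (GA-aFuc) and 590.5 CPM (GITR/Syn GA-aFuc), 4.23-fold between means. In the other clusters the means of the Fc-enhanced and of the other 4 mice were 69.2 and 129 CPM (cluster 20), 200.5 and 56.4 CPM (cluster 48) and 63 and 22.2 CPM (cluster 58), so Ccl5 was lower in clusters 19 and 20 and higher in clusters 48 and 58. No test was run within these clusters. Ust, tested over all other NK cells, followed, with an interaction of 1.69 (SE 0.29, adjusted p = 3.98e-05 by edgeR): 628 and 765 CPM stood beside 447 to 706 CPM in cluster 26, and 55.5 and 46.5 CPM beside 138 to 162 CPM in the other NK cells. DESeq2 called 0 genes in this interaction, so it did not call Ust.

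**Figure D5:**
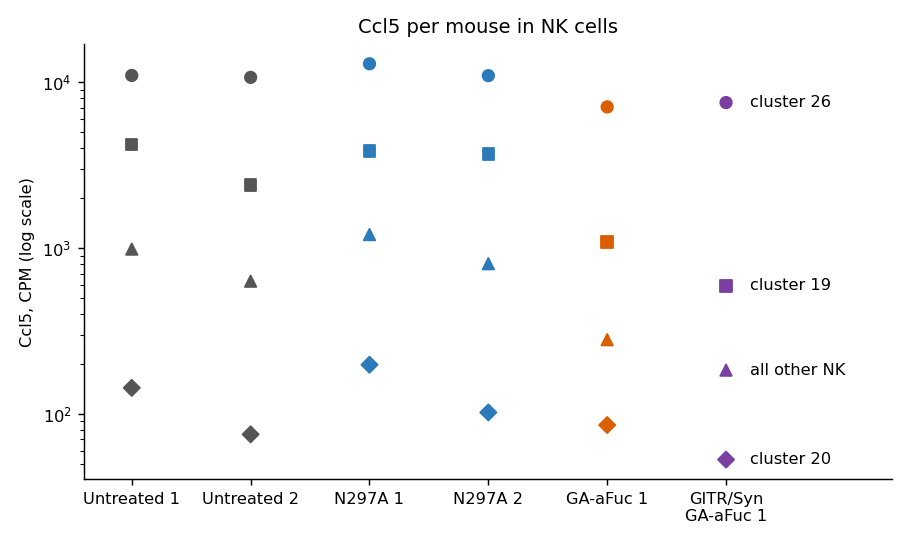
Ccl5 (CPM, log scale) for each mouse in cluster 26 (circles), cluster 19 (squares), all other NK cells (triangles) and cluster 20 (diamonds), coloured by treatment. In cluster 26 the mice given GA-aFuc or GITR/Syn GA-aFuc lie at 7112 and 7558 CPM, below 10728 to 12960 CPM in the other 4, and in cluster 19 at 1090 and 590.5 CPM, below 2409 to 4237 CPM.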

How the data were processed

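Gene and hashtag UMIs of 1 10x Genomics library were used. The authors deposited raw UMI counts per feature and barcode, made with Cell Ranger 9.0.0 on a combined human and mouse reference, which the feature names show, per the file headers. They also deposited a table of treatment, cell type and cluster per cell. The sources used here do not say how cells were filtered, clustered or screened for doublets. No doublet caller was run; 4 of the 169 cells and 0 of 554 other NK cells held a second hashtag over 20%.

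Of 8767 entries with 1000 mouse UMIs, 33 with another treatment's hashtag and 18 with repeated barcodes (0 in cluster 26) were left out. Counts were summed per mouse. Cluster differences are means over mice of log2(CPM + 5). Treatment was fitted with edgeR 4.0.16 (R 4.3.3; TMM, filterByExpr, robust quasi-likelihood), and DESeq2 1.42.0 and limma 3.58.1 were alternatives. Named genes are those with the largest differences (15 each way, at 50 CPM), list members of largest difference (up to 4), genes called by treatment without overlap of mice (up to 10 each way), and a standing set of NK and human Fc receptor genes; other genes named here were chosen after their values were seen, and some list members are not reported here. The largest differences were taken without antigen receptor segments and mitochondrial or sex-linked genes. In simulated data, 2-fold treatment changes were recovered in 10% to 30% and 4-fold changes in 39% to 70% of genes in cluster 26, and 1% to 4% and 4% to 28% in the interaction. False calls in those data numbered 11 for the Fc-enhanced comparison in cluster 26. They numbered 1 for N297A, 2 for GA-aFuc and 3 for GITR/Syn GA-aFuc there, and 0 or 1 per comparison in the interaction. Free RNA is the sum of 408661 barcodes with 5 to 100 UMIs. The members, the 30 lists and the Fc-enhanced grouping were chosen with earlier results of these data known.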

Additional observations from a re-analysis of the deposited data

Results flagged for a closer look

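In 14 of 119 named values, 1 mouse stood apart from the other 5 in its log2 difference of cluster 26 from the other NK cells, where chance gives about 1 in 20. Untreated replicate 2 was lowest for Xcl1 (-4.56), Gpr183 (-2.65) and Pgk1 (-3.05) and highest for Tpx2 (-1.74), Apoe (3.00) and Ms4a6c (3.16). The GITR/Syn GA-aFuc mouse, with 12 cells, was highest for Tyms (-1.54), Dut (-0.88), Ifi208 (2.66) and Zfp36 (2.76) and lowest for Prf1 (-0.82). The GA-aFuc mouse was lowest for Gzmd (-9.04) and Gzmg (-7.20), and N297A replicate 2 for Prdm1 (0.37).

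The change with treatment differed between cluster 26 and the other NK cells for the following genes, by the interaction term of edgeR with Benjamini-Hochberg adjustment; positive values are larger in cluster 26. For GA-aFuc they were Cxcl2 (6.60, adjusted p = 3.91e-11), Il1b (3.56, adjusted p = 3.8e-07), Sema6a (4.36, adjusted p = 0.00125), Ccl2 (3.59, adjusted p = 0.00139), Bend4 (4.99, adjusted p = 0.0353) and St6galnac3 (2.79, adjusted p = 0.0208). Klra1 (2.52, adjusted p = 0.0208), Rgs1 (1.33, adjusted p = 0.0194), Ccl5 (0.83, adjusted p = 0.0486) and C1qc (-2.42, adjusted p = 0.0194) passed there too, and 79 of 80 Il1b UMIs were in 1 cell. For C1qc 64 of the 94 UMIs of the Untreated mice were in 1 cell, and its call was lost in 4 of 6 alternatives (to -0.07) and in 1 of 5 with a mouse left out. The Klra1 call was lost in 4 of 6 and 1 of 5, and the Ccl5 call in 4 of 6 and 3 of 5. Sema6a, Ccl2 and Rgs1 were lost in 2 of 6 alternatives. With a mouse left out Sema6a was lost in 0 of 5 fits, Ccl2 in 1 and Rgs1 in 3. Bend4, from 9 UMIs in 4 cells of the GA-aFuc mouse, was lost in 5 of 6 alternatives and in 1 of 5 with a mouse left out. St6galnac3 had 19 of that mouse's 20 UMIs in 1 cell. It was lost in 3 of 6 alternatives, reversed in 1, and lost in 2 of 5 with a mouse left out. For GITR/Syn GA-aFuc the genes were Ccl5 (1.49, adjusted p = 7.3e-08) and Ust (1.96, adjusted p = 0.0311). The Ust call rested on 48 UMIs, 17 of them in 1 cell. It was lost in 3 of 6 alternatives and in 3 of 5 with a mouse left out. For the Fc-enhanced pair they were Ccl5 (1.24, adjusted p = 1.47e-12), Ust (1.69, adjusted p = 3.98e-05), Atxn1 (1.32, adjusted p = 0.0209) and Klra7 (1.24, adjusted p = 0.0285). Of these, Atxn1 was lost in 1 of 6 alternatives and in 3 of 6 fits that leave out 1 mouse, where the adjusted p reached 0.959. Klra7 was lost in 3 of 6 and 4 of 6.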

How the results depend on the processing

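Genes past the fold numbered 422 higher and 312 lower, and 232 and 157 with a pseudocount of 20 CPM, 139 and 825 with TMM. The lower count was 476 with no filter and 509 without the top cell of each gene in each mouse, and the higher count was 252 with cells thinned to 2000 UMIs. Leaving out each mouse gave 440 to 496 higher and 339 to 365 lower. H1f5 turned to 0.54 and Cd3d to 0.043 against clusters 19 and 20 only. The hashtag difference turned to 0.24 per 1000 UMIs, and was -0.96 to -0.83 without each mouse, where 5 mice cannot reach the threshold.

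The N297A share difference of NK cells turned to 0.43 points without the top 5% of cells, and ran from -0.46 to 0.20 points without each mouse (-0.72 to 0.33 of all cells). The Fc-enhanced difference kept its direction without each mouse.

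Genes called by treatment in cluster 26 with no filter numbered 5 (N297A), 3 (GITR/Syn GA-aFuc) and 6 (Fc-enhanced). Without the top cell they numbered 2 (N297A), 2 (GA-aFuc), 4 (GITR/Syn GA-aFuc) and 14 (Fc-enhanced), and without the top 5% of cells 3 (GITR/Syn GA-aFuc) and 6 (Fc-enhanced). DESeq2 called 1 for GA-aFuc. Without each mouse the counts were 0 to 18 (N297A), 8 to 23 (GA-aFuc), 4 to 10 (GITR/Syn GA-aFuc) and 9 to 21 (Fc-enhanced), each reaching above the count with all mice; the cause was not tested. A group left with 1 mouse is assumed to vary like the others.

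Interaction counts were 1 (GA-aFuc), 0 (GITR/Syn GA-aFuc) and 0 (Fc-enhanced) by DESeq2, 5 for GA-aFuc by limma-voom, and 8 (GITR/Syn GA-aFuc) and 7 (Fc-enhanced) with library size only. They were 1 for GITR/Syn GA-aFuc with no filter, 3 for GA-aFuc without the top cell and 7 for Fc-enhanced without the top 5% of cells. Without the top cell, Il1b turned to -1.76 and St6galnac3 to -0.56. Without each mouse they were 0 to 16 (N297A), 7 to 27 (GA-aFuc), 1 to 7 (GITR/Syn GA-aFuc) and 3 to 16 (Fc-enhanced). Leaving out cells with a second hashtag over 20% was chosen after seeing the data. No paired analysis of treatments was possible because each mouse received 1 treatment and replicate numbers are only names; cluster 26 and the other NK cells were paired by mouse throughout. The floor of 3 UMIs per mouse was 15.4 to 47.8 CPM, which limits genes of low level.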
